A study of Homo sapiens with 6 samples.

Results

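The genes described here encode 48 glycoproteins, laminin chains and proteoglycans of the extracellular matrix, chosen by symbol as rows with an Ensembl identifier among 60605 such rows. They were measured by RNA sequencing in LX-2 cells, an established line of human hepatic stellate cells, kept for 24 h in medium conditioned by HCT116 cells, a human colorectal carcinoma line. In the control group (Vector-CM, n = 3) the HCT116 cells carried an empty vector, and in the other group (FGFBP1-CM, n = 3) they carried FGFBP1, which encodes a secreted protein that binds and carries fibroblast growth factors. The comparison asks how the secretome of FGFBP1-expressing tumor cells changes stellate cell RNA. The LX-2 cells were the same line in both groups, in DMEM with serum, and nothing in the labels says that the replicates were separate cultures, so p-values measure only the spread between these libraries. Conditioned medium came from a single tumor line, and no library of LX-2 cells without conditioned medium was analysed here.

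Hepatic stellate cells are the main source of extracellular matrix in the injured liver. Fibronectin is laid down early and guides the assembly of fibrillin microfibrils, fibulins and latent TGF-β binding proteins, which in turn hold TGF-β in the matrix. Laminins and nidogens build the basement membrane, matricellular proteins such as SPARC and the thrombospondins tune how cells adhere to the matrix, and small leucine-rich proteoglycans such as decorin regulate collagen fibrils.

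Summed RNA of these 48 chosen matrix genes was lower in FGFBP1-CM, by a modest amount, and no single gene of them passed the test over all genes. The summed level of the 48 genes was 6877, 7079 and 6841 CPM (counts relative to the scaled library size) in the Vector-CM libraries and 4932, 6405 and 5473 CPM in the FGFBP1-CM libraries, so the groups did not overlap. The mean was 6932 ± 128 CPM (SD, n = 3) against 5603 ± 745.4 CPM (SD, n = 3), which is 19.17% lower in FGFBP1-CM. An exact two-sided permutation test of 3 libraries against 3 cannot go below p = 0.1, and no test of this sum is given.

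After the filter on low counts, 44 of the 48 genes were tested with the edgeR quasi-likelihood test. None passed an adjusted p of 0.05 (Benjamini-Hochberg over 16582 genes), against 0.121% of all genes tested in either direction and 0.0663% in the lower direction. With DESeq2 10 matrix genes passed, all lower, where 1.99% of the 12893 genes given an adjusted p were called lower, and with limma on FPKM 0 passed. At an unadjusted p under 0.05, 19 matrix genes were lower and 0 were higher in FGFBP1-CM, which is 43.18% of those tested, while 10.6% of all genes were lower and 11.3% higher at that p. The adjusted p of 12 of the 19 lay between 0.05 and 0.1, as did that of 935 genes in all, and 2.61% of all genes were lower at an adjusted p under 0.1.

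The log2 fold change (FGFBP1-CM over Vector-CM) was below 0 for 41 of the 44 genes and above 0 for LUM, FBLN5 and LAMA1. Its median was -0.22, with a range of -0.57 to 0.20, beside a median of 0.0045 over all genes tested, of which 49.1% were below 0. The groups did not overlap for 18 matrix genes, each lower in FGFBP1-CM, beside 13.1% of all genes lower and 13% higher without overlap. The genes were chosen with earlier results of these data known, and they are not replicates of one another, so these counts are descriptions.

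**Figure D1:**
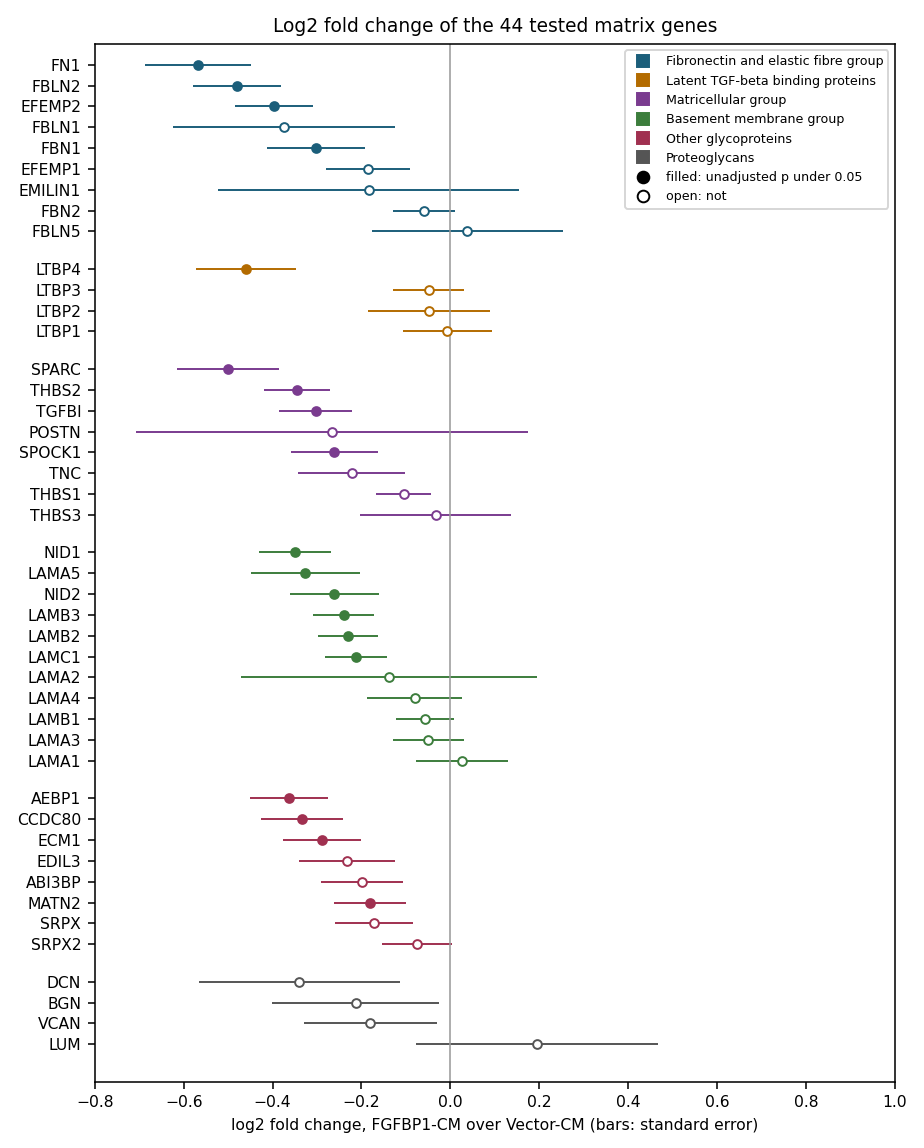
Log2 fold change of each tested matrix gene (x axis, FGFBP1-CM over Vector-CM, bars 1 standard error from edgeR), ordered within 6 role groups (y axis), with filled points for an unadjusted p under 0.05. FN1, SPARC and FBLN2 lie farthest to the left at -0.57, -0.50 and -0.48, and only LUM, FBLN5 and LAMA1 lie to the right of 0.

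Of the 22 matrix genes with a mean of at least 1000 counts, all 22 had a log2 fold change below 0 and 16 had an unadjusted p under 0.05 in edgeR. Among all 4149 genes at that depth, 55.03% had a log2 fold change below 0, 16.3% were lower at that p, and the median was -0.02. Of the 8 tested matrix genes with a mean under 100 counts, 0 had an unadjusted p under 0.05. At any depth, 10.6% of all genes tested were lower and 11.3% higher at that p. No share was taken over all genes at the low depth, so no contrast with the deeper genes can be drawn.

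Library totals over Ensembl identifiers were 13992930 to 18494548 counts, and a count of 0 allows up to 3 counts, or 0.158 to 0.217 CPM, counting error only. Along the first principal component (42.76% of variance) FGFBP1-CM replicate 1 stood apart from the other 5 libraries, which bears on the values below. Without any 1 Vector-CM library, edgeR called 4 to 6 genes in all, against 20 (9 higher, 11 lower) from all libraries, and RLE scaling gave 38, of which 24 were higher. Of 13 stellate and fibroblast markers, 11 were tested. The list summed to 3291 to 3479 CPM for Vector-CM, against 2695 to 3110 CPM for FGFBP1-CM. Most of that sum was VIM (vimentin), with means of 2586 and 2157 CPM (edgeR adjusted p = 0.0967). Of the 11 tested, 3 were lower without overlap (VIM, TIMP1 and TAGLN) and 1 was higher without overlap. The groups overlapped for the others, COL1A1, PDGFRB and ACTA2 among them. LRAT, the retinol esterifying enzyme of quiescent stellate cells, was at 0 counts in all libraries, and DES, which encodes desmin, was below the filter. TIMP1, an inhibitor of matrix metalloproteinases, was the 1 stellate marker that fell at an adjusted p under 0.05 (log2 fold change -0.37, edgeR adjusted p = 0.0465). DDR2 alone of the 11 tested had a log2 fold change above 0 (0.16, edgeR adjusted p = 0.189), and its groups did not overlap. Of 13 hepatocyte markers 6 were tested and 4 fell (APOB, ALB, AFP and FGA) in edgeR, beside 0.0663% of all genes called lower. These 4 had few reads, with Vector-CM means of 3.37, 3.42, 3.10 and 0.931 CPM. Their FGFBP1-CM means were 0.278, 0.610, 0.668 and 0.0593 CPM. The 13 markers summed to 41.5 to 44.4 CPM against 18.2 to 28.1 CPM. Most of that sum was SERPINA1, with means of 29.57 and 20.63 CPM (edgeR adjusted p = 0.0696). The 14 colorectal epithelial markers summed to 10.7 to 11.9 CPM against 10.3 to 13.2 CPM, with 3 tested and CEACAM5 at 0 counts in all libraries. Endothelial markers summed to 14.2 to 16.2 CPM against 12.7 to 15.7 CPM, with 4 of 6 tested and none at 0 in all libraries. Macrophage markers summed to 4.34 to 5.35 CPM against 4.34 to 7.02 CPM, with 4 of 6 tested and CD163 at 0 counts throughout. The stellate sum, mostly VIM, and the hepatocyte sum, mostly SERPINA1, were lower in FGFBP1-CM, as the sum of the matrix genes was. The part of these marker genes in the result was not tested. In bulk RNA, fewer cells of a type and less RNA per cell cannot be told apart.

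The FGFBP1-CM libraries differed from each other more than the Vector-CM libraries did. Against the Vector-CM mean, the median log2 level of the tested matrix genes was -0.31 in FGFBP1-CM replicate 1, -0.09 in replicate 2 and -0.29 in replicate 3. In these libraries 36, 22 and 37 of the 44 genes lay below every Vector-CM library. FGFBP1-CM replicate 1 held the lowest value of the 6 libraries for 27 genes, replicate 3 for 13 and replicate 2 for 1, and replicate 2 held the highest of its group for 31. These counts of library positions were not taken over all genes, so they cannot tell a trait of the matrix genes from one of the whole library. Without FGFBP1-CM replicate 2 the edgeR test called 20 matrix genes, all lower, where 2.87% of all genes were called lower. Without replicate 1 it called 2 (FBLN2 and SPARC), where 0.19% of all genes were called lower, and without replicate 3 it called 5 (EFEMP2, FBLN2, NID1, SPARC and THBS2), where the share was 0.649%, again all lower.

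**Figure D2:**
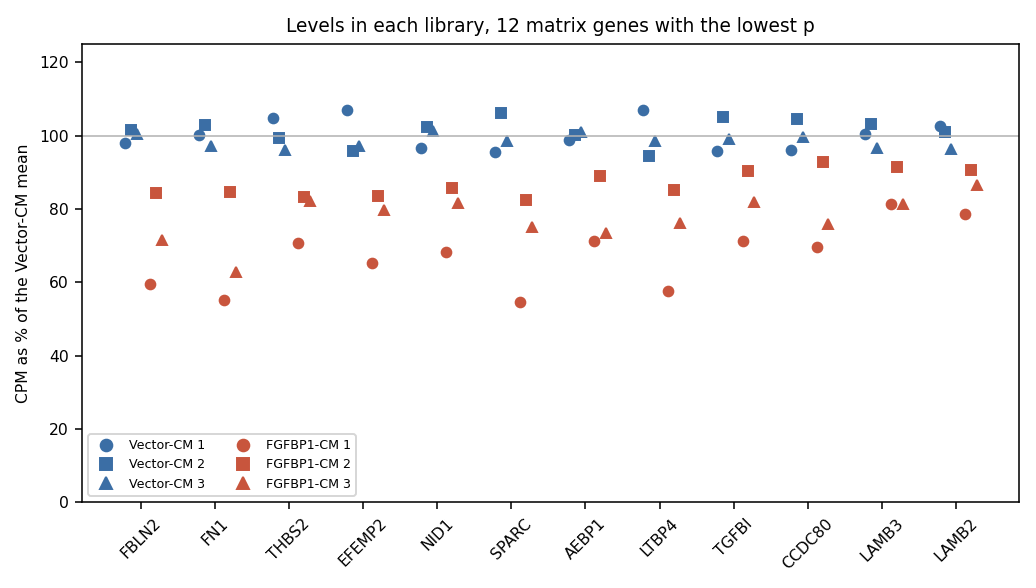
CPM of the 12 matrix genes with the lowest p in each library (y axis, percent of the Vector-CM mean of that gene, from 0), with a symbol for each replicate and a color for each group. All FGFBP1-CM points lie below the Vector-CM points of the same gene, and FGFBP1-CM replicate 2 (squares) lies highest of its group for each.

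Levels differed widely within the family, and reads alone cannot rank genes of unlike length. FPKM divides by the gene length that the authors used, so the order below depends on that length. By FPKM (fragments scaled to gene length and library size, deposited by the authors, mean ± SD over the 6 libraries) the most abundant member was LAMC1 at 116.7 ± 9.2, followed by SPOCK1 at 110.6 ± 14.2, SPARC at 94.8 ± 19.6 and FN1 at 57.1 ± 13.2. LAMC1 and SPOCK1 lay within the spread of each other, as did SPOCK1 and SPARC. FN1 would rank higher by reads alone, at 986.6 CPM beside 987.3 CPM of LAMC1, because the length the authors used for FN1 was 17230 bases. All annotated exons of FN1 merged cover 17315 bases in GENCODE 29, and at a shorter transcript length its FPKM would be higher. Next came FBLN2 at 39.3 ± 7.43 FPKM, LAMB2 at 32.2 ± 2.80, TGFBI at 30.7 ± 3.78 and ABI3BP at 28.9 ± 3.15, whose ranges overlapped. LAMB1 came lower, at 15.13 FPKM, though it had 281.6 CPM beside 221.6 CPM of LAMB2. The length the authors used for LAMB1 was 18610 bases, beside 8140 exon bases in GENCODE 29, so its rank is uncertain. Its counts may also include reads outside those exons, so its CPM and log2 fold change carry the same limit.

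**Figure D3:**
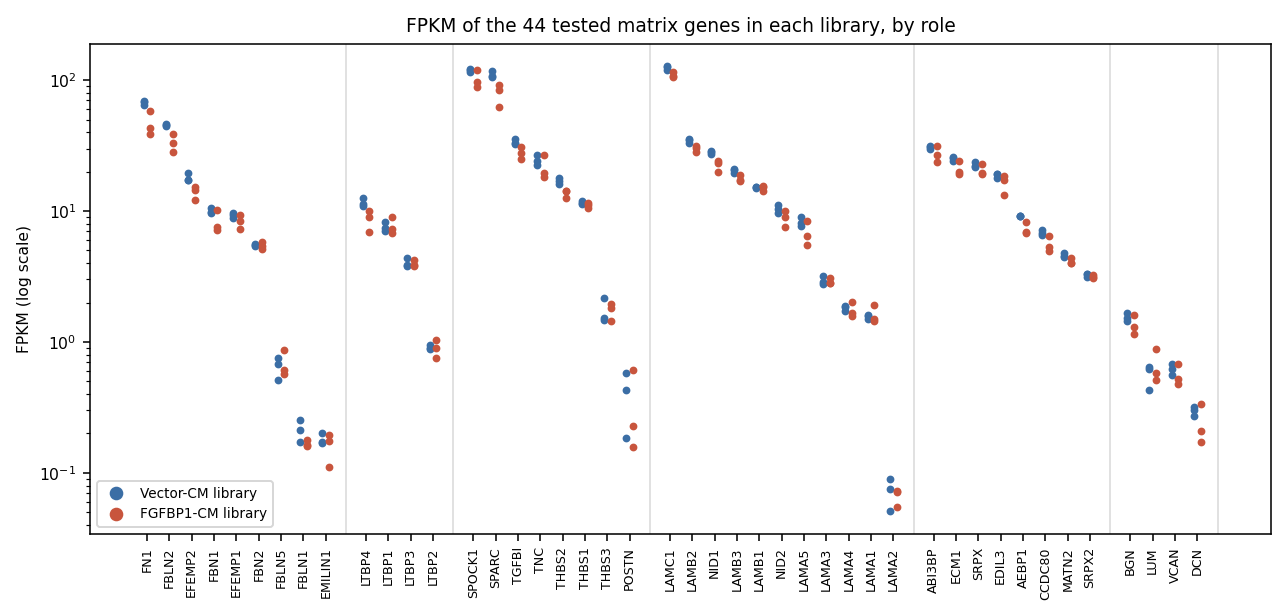
Deposited FPKM of each of the 44 tested matrix genes (x axis, by role) in each library on a log axis, with 1 point a library and a color for each group. LAMC1, SPOCK1 and SPARC lie near the top at mean values of 116.7, 110.6 and 94.8 FPKM.

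To show the regulatory sequence beside the measurements, RefSeq windows of 250 bases before the transcription start (GRCh38.p14) were searched for 5 motifs on both strands. Of the 48 genes 38 had a window, 9 of them more than 1 start, and a gene was counted if any of its windows held the motif. Windows are printed for FBLN2, which had a low adjusted p, and for the paralog pairs LTBP4 with LTBP1 and FBN1 with FBN2, whose members differed in log2 fold change. Windows that overlapped an annotated exon, such as those of FN1, SPARC and THBS2, are not printed. Sequences run 5′ to 3′ on the strand of the gene, and capitals mark matches to the motifs searched.
FBLN2 (chr3:13548875-13549124, plus strand): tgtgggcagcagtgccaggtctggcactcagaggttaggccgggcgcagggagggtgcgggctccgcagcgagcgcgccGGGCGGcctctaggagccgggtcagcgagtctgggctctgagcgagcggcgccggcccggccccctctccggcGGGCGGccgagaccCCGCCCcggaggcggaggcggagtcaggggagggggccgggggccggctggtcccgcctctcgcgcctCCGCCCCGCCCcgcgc
LTBP4 (chr19:40601119-40601368, plus strand): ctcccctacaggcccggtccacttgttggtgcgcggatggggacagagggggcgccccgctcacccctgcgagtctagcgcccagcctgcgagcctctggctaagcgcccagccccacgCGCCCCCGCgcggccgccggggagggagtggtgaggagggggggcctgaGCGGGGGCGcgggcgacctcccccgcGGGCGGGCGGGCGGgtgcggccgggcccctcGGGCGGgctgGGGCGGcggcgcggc
LTBP1 (chr2:32946703-32946952, plus strand): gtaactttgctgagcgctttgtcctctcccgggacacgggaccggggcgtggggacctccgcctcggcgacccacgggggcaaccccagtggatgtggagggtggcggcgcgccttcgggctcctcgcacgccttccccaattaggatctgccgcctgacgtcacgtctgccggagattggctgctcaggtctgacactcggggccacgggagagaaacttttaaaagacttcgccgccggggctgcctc
FBN1 (chr15:48644971-48645220, minus strand): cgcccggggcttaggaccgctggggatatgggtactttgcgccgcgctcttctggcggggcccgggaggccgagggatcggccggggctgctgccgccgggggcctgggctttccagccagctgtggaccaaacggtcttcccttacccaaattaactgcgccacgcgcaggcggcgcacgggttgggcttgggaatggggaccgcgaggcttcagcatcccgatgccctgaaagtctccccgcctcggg
FBN2 (chr5:128538246-128538495, minus strand): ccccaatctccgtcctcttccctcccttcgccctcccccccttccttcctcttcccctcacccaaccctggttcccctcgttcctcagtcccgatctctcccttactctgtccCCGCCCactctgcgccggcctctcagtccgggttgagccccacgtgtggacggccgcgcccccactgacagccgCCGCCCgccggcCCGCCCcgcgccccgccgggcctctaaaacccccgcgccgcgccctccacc

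In the FBLN2 window printed, the capitals are 5 copies of GGGCGG or its reverse complement CCGCCC, the core of the GC box bound by the SP factors, and those of FBN2 are 3 copies. A window before another start of FBLN2, also free of exons, held 0 of the 5 motifs. The LTBP4 window held 5 copies of GGGCGG and 2 of GCGGGGGCG, a form of the motif bound by EGR family factors, while the LTBP1 and FBN1 windows held 0 of the 5 motifs. Neighboring GGGCGG copies overlap by shared letters in LTBP4 and FBLN2. Across the matrix genes, GGGCGG was present in 29 of 38, beside 42.6% of all 35116 windows. Here and for the other motifs the first count is per gene and the share is per window. The units are therefore unlike, and genes with several windows can match more easily. It was present in 12 of the 16 matched genes at an unadjusted p under 0.05 and in 15 of the 20 other tested genes. GCGTGGGCG was found in 1 of 38 genes and 0.72% of all windows, GCGGGGGCG in 3 and 4.72%, TATAAA in 6 and 10.7%, and TGANTCA, a site of AP-1 factors, in 6 and 6.57%. With 1 window taken per matrix gene, the median GC content was 64.2%, beside 58.0% over all windows. These matches describe letters in a window and are not evidence of binding.

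Fibronectin and the elastic fibre genes had the lowest median log2 fold change of the 6 role groups. Of 12 genes 9 were tested, 8 had a log2 fold change below 0, 4 had an unadjusted p under 0.05, each lower, and that median was -0.30. Beside these counts and those of the other role groups, 49.1% of all genes tested were below 0 and 10.6% were lower at that p. FN1 (ENSG00000115414, chromosome 2, 215360440 to 215436172, minus strand, GENCODE 29 on GRCh38) encodes fibronectin, the glycoprotein to which integrins bind. Its level was 1179, 1213 and 1143 CPM in Vector-CM and 648.4, 996.3 and 740.8 CPM in FGFBP1-CM. Every FGFBP1-CM library lay below every Vector-CM library, and FGFBP1-CM replicate 2 lay nearest to them. The log2 fold change of FN1 was -0.57 (SE 0.119, edgeR adjusted p = 0.0561), or 32.5% lower. Its adjusted p was 0.00107 without FGFBP1-CM replicate 2 and 0.236 at the highest of the alternatives.

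FBLN2 (ENSG00000163520, chromosome 3, 13549131 to 13638422, plus strand) encodes fibulin-2, which binds fibronectin and fibrillin. It measured 216.5, 224.3 and 222.2 CPM in Vector-CM and 131.5, 186.1 and 158.0 CPM in FGFBP1-CM. The Vector-CM libraries lay close together, with a SD of 4.02 CPM, and the groups did not overlap. The log2 fold change was -0.48 (SE 0.0981, edgeR adjusted p = 0.0561), and FBLN2 passed the threshold in 8 of 16 alternatives. EFEMP2 (chromosome 11), which encodes fibulin-4 and helps lysyl oxidase to crosslink elastin, measured 105.1, 94.19 and 95.50 CPM against 64.03, 82.07 and 78.24 CPM. These groups did not overlap either, and the log2 fold change was -0.40 (SE 0.0886, edgeR adjusted p = 0.0607).

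FBN1, which encodes the fibrillin that forms the backbone of microfibrils, measured 196.0, 181.6 and 187.5 CPM in Vector-CM and 129.9, 189.3 and 139.7 CPM in FGFBP1-CM. FGFBP1-CM replicate 2 lay within the Vector-CM range, and the log2 fold change was -0.30 (SE 0.110, edgeR adjusted p = 0.146). Its paralog FBN2 measured 72.10 to 75.33 CPM against 67.11 to 76.49 CPM, a log2 fold change of -0.06. EFEMP1 (fibulin-3) was at 35.12 CPM over the 6 libraries with a log2 fold change of -0.18, and its groups overlapped.

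The remaining elastic fibre genes had few reads. FBLN5, which encodes the fibulin that tethers elastic fibres to cells, measured 3.29, 2.53 and 3.76 CPM against 4.10, 2.95 and 2.75 CPM, a log2 fold change of 0.04 (SE 0.214, edgeR adjusted p = 0.939). FBLN1 was at 1.39 CPM on average with -0.37 and EMILIN1, an elastin microfibril interfacer, at 0.665 CPM with -0.18 on the log2 scale, neither at an unadjusted p under 0.05. Elastin itself was barely detected, since ELN had 1, 1 and 0 counts in Vector-CM and 2, 0 and 0 in FGFBP1-CM. MFAP2 had 2, 3 and 1 against 5, 7 and 1 counts, and MFAP5 had 2, 1 and 3 against 3, 0 and 2 counts, and both microfibril-associated genes were below the filter.

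Among the latent TGF-β binding proteins, which anchor latent TGF-β in the matrix, LTBP4 was the gene with the lowest log2 fold change. The 4 genes were all tested and all had a log2 fold change below 0, but the median was -0.05 and LTBP4 alone had an unadjusted p under 0.05. LTBP4 (ENSG00000090006, chromosome 19, 40592883 to 40629818, plus strand) measured 101.8, 90.0 and 93.82 CPM in Vector-CM and 54.73, 81.00 and 72.61 CPM in FGFBP1-CM. The groups did not overlap, and the log2 fold change was -0.46 (SE 0.113, edgeR adjusted p = 0.0691). LTBP1 measured 51.97, 61.01 and 55.77 CPM against 52.26, 65.83 and 49.79 CPM, and its log2 fold change of -0.01 (SE 0.101, edgeR adjusted p = 0.979) turned above 0 in 7 alternatives. LTBP3 and LTBP2, at 42.66 and 8.19 CPM on average, both had a log2 fold change of -0.05.

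Within a library, the ratio of LTBP4 to a paralog is free of library scaling, but not of effects of GC content or length. GC content was 66.65% for LTBP4, 67.79% for LTBP3 and 51.67% for LTBP1. After the correction for GC content and length given below, the log2 fold change of LTBP4 was -0.34 (edgeR adjusted p = 0.0686). The ratios were not corrected in that way. The log2 ratio of LTBP4 to LTBP3 counts was 1.13, 1.13 and 1.15 in Vector-CM and 0.45, 0.83 and 0.84 in FGFBP1-CM, a difference of -0.43 without overlap (exact permutation p = 0.1, the smallest that 3 against 3 can give). Against LTBP1 the ratio was 0.97, 0.56 and 0.75 in Vector-CM and 0.07, 0.30 and 0.54 in FGFBP1-CM, a difference of -0.46 that also did not overlap (exact permutation p = 0.1). Over the 14 paralog pairs compared, which were picked after the values were seen, no adjusted p was below 0.28 in the exact permutation test.

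In the matricellular group all 8 genes were tested, 8 had a log2 fold change below 0, 4 of them an unadjusted p under 0.05, and the median was -0.26. SPARC (ENSG00000113140, chromosome 5, 151661096 to 151687165, minus strand), or osteonectin, binds collagen and helps it to assemble. Its level was 493.4, 548.6 and 509.7 CPM in Vector-CM and 282.8, 426.1 and 388.4 CPM in FGFBP1-CM, without overlap. The log2 fold change was -0.50 (SE 0.115, edgeR adjusted p = 0.0637), and SPARC passed in 8 of 16 alternatives. An antisense gene, CLMAT3, shares 7.89% of the exon bases of SPARC.

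SPOCK1, which encodes testican-1, a proteoglycan related to SPARC, had the most reads of the group. It measured 746.9, 765.5 and 735.2 CPM in Vector-CM and 533.8, 743.4 and 597.6 CPM in FGFBP1-CM, so that FGFBP1-CM replicate 2 lay inside the Vector-CM range. Its log2 fold change was -0.26 (SE 0.0979, edgeR adjusted p = 0.152), ranging from -0.41 without FGFBP1-CM replicate 2 to -0.16 without replicate 1. TGFBI, a TGF-β induced protein that binds integrins and collagen, measured 251.7, 276.1 and 259.7 CPM against 186.7, 237.0 and 214.8 CPM, without overlap, a log2 fold change of -0.30 (edgeR adjusted p = 0.0824).

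The thrombospondins, which bind CD47 and integrins and, for THBS1, activate latent TGF-β, had unlike log2 fold changes. THBS2 measured 129.3, 122.8 and 118.5 CPM in Vector-CM and 87.43, 102.9 and 101.5 CPM in FGFBP1-CM, and the groups did not overlap. Its log2 fold change was -0.35 (SE 0.0743, edgeR adjusted p = 0.0561). THBS1 measured 105.1, 111.5 and 105.4 CPM against 102.4, 95.86 and 100.9 CPM, also without overlap but by a smaller amount, with a log2 fold change of -0.11 (SE 0.0627, edgeR adjusted p = 0.346). The log2 ratio of THBS2 to THBS1 was 0.30, 0.14 and 0.17 in Vector-CM and -0.23, 0.10 and 0.01 in FGFBP1-CM, without overlap (exact permutation p = 0.1). THBS3 measured 6.91 to 9.98 CPM against 6.47 to 8.99 CPM, a log2 fold change of -0.03 (SE 0.170, edgeR adjusted p = 0.933), and 25.4% of its exon bases overlap genes on the opposite strand, MTX1 among them.

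TNC, which encodes tenascin-C, an adhesion-modulating glycoprotein of wounds and tumor stroma, measured 233.5, 260.0 and 222.7 CPM against 183.6, 257.0 and 173.4 CPM. FGFBP1-CM replicate 2 lay among the Vector-CM libraries, and the log2 fold change was -0.22 (edgeR adjusted p = 0.3), with a call only without that replicate (edgeR adjusted p = 0.0164). POSTN, or periostin, was near 2 CPM with a log2 fold change of -0.27 (SE 0.442), and its groups overlapped.

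**Figure D4:**
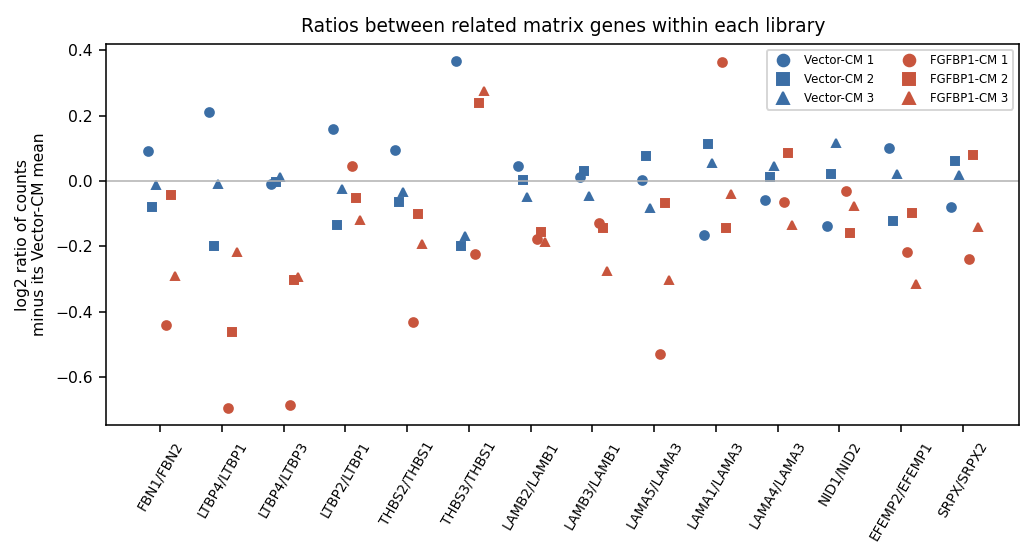
Log2 ratio of counts of 14 paralog pairs in each library (y axis, minus the Vector-CM mean of the pair), with a symbol for each replicate and a color for each group. The ratios of LTBP4 to LTBP1 and LTBP3, THBS2 to THBS1, and LAMB2 and LAMB3 to LAMB1 do not overlap between groups, and the others do.

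The basement membrane group held 11 tested genes, of which 10 had a log2 fold change below 0 and 6 an unadjusted p under 0.05, each lower, with a median of -0.21. A laminin is a trimer of an alpha, a beta and a gamma chain. By FPKM summed over the chains of each kind, including chain genes outside the 48, the alpha chains were at 13.85 ± 1.46, the beta chains at 66.3 ± 4.76 and the gamma chains at 120.2 ± 9.03 (mean ± SD over 6 libraries), so alpha chain RNA was the scarcest of the kinds. LAMC1, the gamma chain shared by most laminins, measured 1009, 1093 and 1078 CPM in Vector-CM and 876.1, 980.3 and 887.4 CPM in FGFBP1-CM. Those groups did not overlap, and the log2 fold change was -0.21 (SE 0.0691, edgeR adjusted p = 0.114).

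Beta chain levels were as follows. LAMB2 measured 245.5, 241.6 and 230.4 CPM against 188.0, 216.7 and 207.2 CPM, a log2 fold change of -0.23 (SE 0.0679, edgeR adjusted p = 0.0955). LAMB3, a chain of the epithelial laminin-332, measured 96.03, 98.53 and 92.34 CPM against 77.70, 87.33 and 77.87 CPM, a log2 fold change of -0.24 (edgeR adjusted p = 0.0895). LAMB1 measured 285.8, 289.6 and 286.2 CPM against 255.3, 289.7 and 283.2 CPM, with overlap and a log2 fold change of -0.06 (edgeR adjusted p = 0.646). Within libraries the log2 ratio of LAMB2 to LAMB1 was -0.22, -0.26 and -0.31 in Vector-CM and -0.44, -0.42 and -0.45 in FGFBP1-CM, without overlap (exact permutation p = 0.1). LAMB3 to LAMB1 differed by -0.18 between the groups, also without overlap. GC content was 60.31% for LAMB2 and 58.93% for LAMB3, beside 49.48% for LAMB1, and these ratios were not corrected for it. After the correction for GC content and length, the log2 fold change of LAMB2 was -0.16 (edgeR adjusted p = 0.17). The bases counted for LAMB1 are uncertain, as stated above, and both ratios rest on its counts.

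Of the 5 alpha chains, LAMA5 alone had an unadjusted p under 0.05. LAMA5, the broadly expressed alpha chain of laminin-511, measured 128.1, 118.1 and 111.5 CPM against 75.91, 119.0 and 91.02 CPM, so the groups overlapped through FGFBP1-CM replicate 2, and the log2 fold change was -0.33 (SE 0.123, edgeR adjusted p = 0.155). LAMA3 and LAMA4, at 42.27 and 21.41 CPM on average, had log2 fold changes of -0.05 and -0.08. LAMA1 measured 23.92, 25.45 and 25.77 CPM against 29.60, 23.70 and 22.94 CPM, a log2 fold change of 0.03 (SE 0.103, edgeR adjusted p = 0.911), with the highest and the lowest value both in FGFBP1-CM. LAMA2, the alpha chain of muscle, was at 0.715 CPM with a log2 fold change of -0.14.

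The nidogens, which link laminin to collagen IV, were both lower at an unadjusted p under 0.05. NID1 measured 158.5, 168.0 and 166.1 CPM in Vector-CM and 111.9, 140.6 and 134.1 CPM in FGFBP1-CM, without overlap, a log2 fold change of -0.35 (SE 0.0807, edgeR adjusted p = 0.0637). NID2 measured 71.10, 67.45 and 62.55 CPM against 46.58, 64.01 and 57.62 CPM, with overlap, a log2 fold change of -0.26 (edgeR adjusted p = 0.162). RTRAF, on the opposite strand, shares 30.0% of the exon bases of NID2, and whether counting used strand is not stated.

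Among the other glycoproteins all 8 genes were tested, all had a log2 fold change below 0, 4 had an unadjusted p under 0.05, and the median was -0.22. ABI3BP, a collagen-binding protein that was the most abundant of the group by FPKM, measured 347.2, 330.0 and 343.1 CPM against 253.0, 345.7 and 290.3 CPM. FGFBP1-CM replicate 2 lay within the Vector-CM range, and the log2 fold change was -0.20 (SE 0.0928, edgeR adjusted p = 0.231). ECM1, which in the liver restrains the activation of latent TGF-β, measured 85.65, 88.41 and 82.28 CPM against 63.14, 81.06 and 65.88 CPM, without overlap, a log2 fold change of -0.29 (SE 0.0878, edgeR adjusted p = 0.101).

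AEBP1, a collagen-binding protein of connective tissue, measured 45.73, 46.41 and 46.78 CPM in Vector-CM and 32.96, 41.19 and 33.95 CPM in FGFBP1-CM, without overlap, a log2 fold change of -0.36 (SE 0.0871, edgeR adjusted p = 0.0673). The Vector-CM SD of AEBP1 was 0.532 CPM and the FGFBP1-CM SD was 4.49 CPM. CCDC80 measured 86.77, 94.34 and 89.93 CPM against 62.93, 83.82 and 68.45 CPM, without overlap, a log2 fold change of -0.33 (edgeR adjusted p = 0.0857). MATN2, a matrilin that forms filaments around cells, was at 30.30 CPM on average with -0.18 on the log2 scale (edgeR adjusted p = 0.214) and no overlap. EDIL3, an integrin ligand, was at 102.7 CPM with a log2 fold change of -0.23, and its lowest value, 74.49 CPM, was in FGFBP1-CM replicate 1. The sushi-repeat proteins SRPX and SRPX2 were at 42.89 and 24.68 CPM with log2 fold changes of -0.17 and -0.07, and SRPX2 shares 17.2% of its exon bases with SYTL4 on the opposite strand.

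The proteoglycan group held VCAN and the small leucine-rich genes, all at low levels, while SPOCK1 is given with the matricellular group. Of 5 genes 4 were tested, 3 had a log2 fold change below 0, none had an unadjusted p under 0.05, the groups overlapped for each, and the median was -0.20. BGN, or biglycan, was the most abundant by FPKM at 1.45 ± 0.195 (SD, n = 6), and measured 3.46, 3.69 and 4.09 CPM against 3.05, 3.89 and 2.75 CPM, a log2 fold change of -0.21 (SE 0.187, edgeR adjusted p = 0.536). LUM, or lumican, measured 1.67, 1.16 and 1.75 CPM against 2.31, 1.38 and 1.53 CPM, a log2 fold change of 0.20 (SE 0.272, edgeR adjusted p = 0.714), with the highest value in FGFBP1-CM replicate 1. VCAN, which encodes the large proteoglycan versican, and DCN, or decorin, were at 8.63 and 3.46 CPM with log2 fold changes of -0.18 and -0.34. FMOD, which encodes fibromodulin, was at 0 counts in all 6 libraries.

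Other genes of the same matrix were read from the same fit. Of 65 further matrix glycoprotein and proteoglycan genes 37 were tested, 21 had a log2 fold change below 0, 12 were lower and 4 higher at an unadjusted p under 0.05, and none passed the adjusted threshold in edgeR. For all genes tested, 49.1% were below 0, and 10.6% were lower and 11.3% higher at that p. The lowest unadjusted p values among them belonged to HSPG2 (perlecan), AGRN (agrin) and MATN3, with log2 fold changes of -0.47, -0.48 and -0.40. The median of these 37 was -0.08, beside -0.22 in the 44.

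Receptors, cargo and processing enzymes of these proteins were also examined. Of 44 genes 39 were tested, 31 had a log2 fold change below 0, 15 were lower and 1 higher at an unadjusted p under 0.05, and none passed the adjusted threshold in edgeR. The matching shares of all genes tested were 49.1% below 0, 10.6% lower and 11.3% higher. LOX, the lysyl oxidase that crosslinks collagen and elastin, measured 115.6, 100.8 and 109.3 CPM against 62.40, 87.02 and 76.04 CPM, a log2 fold change of -0.53 (edgeR adjusted p = 0.0561). TGFB1 and LOXL2 both had a log2 fold change of -0.35 (edgeR adjusted p = 0.0561 for each). ITGA2, the collagen-binding integrin subunit, was the gene on the higher side, at 191.3, 180.2 and 166.2 CPM against 292.2, 233.5 and 210.6 CPM, a log2 fold change of 0.45 (edgeR adjusted p = 0.0621).

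Of 44 collagen chain genes 25 were tested, 21 had a log2 fold change below 0, 12 were lower at an unadjusted p under 0.05 and none passed the adjusted threshold in edgeR. Of all genes tested, 49.1% were below 0 and 10.6% were lower at that p. The median of the collagen genes was -0.24. COL5A1, COL6A1 and COL4A2 had the lowest unadjusted p, with log2 fold changes of -0.60, -0.39 and -0.35, and the difference between the collagens and the 44 glycoprotein genes was not tested.

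GC content was compared because log2 fold change ran with it over all genes. The GC content of the matrix genes had a median of 50.57%, beside 47.73% over the 16401 tested genes that had a value. Spearman's rho between log2 fold change and GC content was -0.101 over the 44 matrix genes and -0.206 over the 16401 genes, given as a description since genes share libraries. After a correction for GC content and length, 5 matrix genes passed in edgeR (CCDC80, FBLN2, FN1, SPARC and THBS2), all lower, where 0.495% of all genes were called lower, and the median was -0.22. With the replicate number as a block 4 matrix genes were called, all lower, where 0.326% of all genes were called lower, and with the block and that correction 8, where the share was 1.47%. Without a filter on low counts 14 were called, all lower, where the share was 1.45%.

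**Figure D5:**
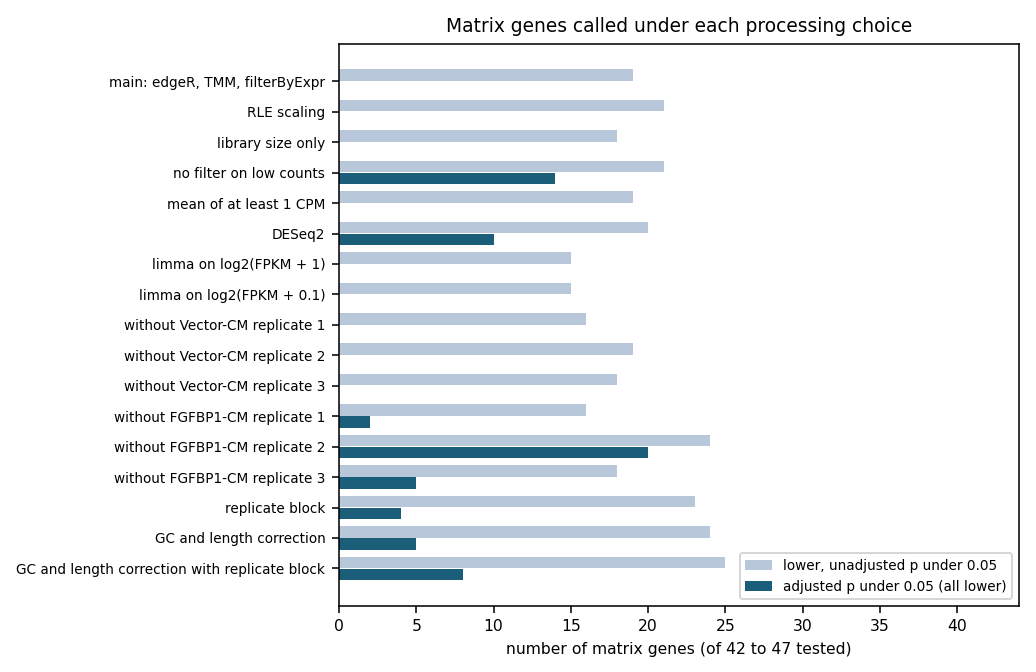
Number of matrix genes (x axis) lower at an unadjusted p under 0.05 (pale bars) and called at an adjusted p under 0.05 (dark bars) under each processing choice (y axis). The pale bars stay between 15 and 25, while the dark bars run from 0 to 20, the highest without FGFBP1-CM replicate 2.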

How the data were processed

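RNA from 6 LX-2 samples was sequenced. Per the labels and methods, read pairs were aligned by the authors using HISAT2 2.0.5 and counted per gene with featureCounts 1.5.0-p3. They deposited raw counts and, computed from gene length, FPKM, for 60780 rows, of which 175 without an Ensembl identifier were left out. The submitters' processing notes name hg18, and the annotation and strand setting are not given in the sources used here. Positions are from GENCODE 29 on GRCh38, where 96.3% of identifiers were found, and need not be those used for counting. Both poly(A) selection and depletion of ribosomal RNA appear in the methods. Gene Ontology and pathway columns were not used. Reads of near-identical or overlapping genes may have been split or dropped.

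Groups and replicate numbers came from the sample titles. Raw counts were fitted with edgeR 4.0.16 in R 4.3.3 (filterByExpr, TMM scaling, quasi-likelihood F-test), with Benjamini-Hochberg adjustment over 16582 genes and a threshold of 0.05. CPM refers to the TMM-scaled library size, and the standard error is the size of the log2 fold change divided by the square root of F. The test was repeated with scaling by RLE or by library size alone, without a filter, with a mean of at least 1 CPM, with DESeq2 1.42.0, with limma 3.58.1 on log2(FPKM + 1) and log2(FPKM + 0.1), with each library left out, with the replicate number as a block, and after a loess correction (span 0.3) for GC content and length, also with the block. Scripts were tested on simulated data. Paralog log2 ratios were compared with a two-sided exact permutation test, adjusted over the pairs. Pairs of libraries within a group differed by more than sampling noise, so none were merged. Deviations from the group mean were uncorrelated or weakly correlated between libraries of the same number (-0.115, -0.0131 and 0.14 over 15011 genes). No pairing by replicate number was seen, but with so few libraries these correlations cannot settle whether the samples were paired.

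Given with full values were the 5 tested members with the lowest and the 5 with the highest log2 fold change and the 2 with the highest FPKM in each role group. Of the other lists, genes past the threshold or else the 3 with the lowest p were named. ITGA2 was named after its value was seen, as were further members given per library. The members and all lists were chosen with earlier results of these data known. Promoter windows are from the RefSeq table, assembly GRCh38.p14.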

Additional observations from a re-analysis of the deposited data

How the results depend on the processing

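The number of genes called depended on the processing. Against 20 genes (9 higher), RLE scaling gave 38 (24 higher), no filter 1382, a mean of at least 1 CPM 11, DESeq2 565, and limma gave 1 with either pseudocount (1 or 0.1 FPKM). Of the matrix genes, 0 were called in edgeR, 14 without a filter (1.45% of all genes called lower), 10 by DESeq2 and 5 with the GC and length correction, which called 153 genes in all. With no filter the prior degrees of freedom were infinite, so edgeR gave genes a common spread, while with filterByExpr and TMM they were 9.28. Leaving out 1 library gave 4 to 911 genes and 0 to 20 matrix genes, the highest of both without FGFBP1-CM replicate 2. Over the 16 alternatives every call of a matrix gene was lower in FGFBP1-CM, the number at an unadjusted p under 0.05 lay between 15 and 25, and the median log2 fold change between -0.28 and -0.14. Library size alone moved the median of all genes to 0.04. For the remaining shifts, the cause was not tested.

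With the replicate block 121 genes and 4 matrix genes (FBLN2, FN1, NID1 and SPARC) were called, with 0.326% of all genes lower, and 347 and 8, with 1.47% lower, when the replicate block was combined with the GC correction. Whether the replicate numbers pair the samples is not known.

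Genes near 0 turned sign. LTBP1 was 0.0257 with library size only, 0.00510 without a filter, 0.0162 and 0.0175 in limma with pseudocounts of 1 and 0.1, and ranged from -0.1384 to 0.0696 with 1 library left out. THBS3 was 0.0132 and 0.0224 in limma and ranged from -0.1339 to 0.1679 with 1 library left out. In those fits FBLN5 ranged from -0.1702 to 0.1637, LAMA1 from -0.1003 to 0.0951, and LUM from -0.0799 to 0.3334. Of 697 values of the 44 genes, 604 kept their direction without passing the threshold, 68 passed it and 25 turned sign. No matrix gene had a call to lose. Depth limits the 8 genes with a mean under 100 counts, and with 3 libraries a group the exact test cannot go below 0.1.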
